A study of Mus musculus with 2 samples.

Results

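Interferon-stimulated genes are described here through 31 named members: 4 transcription factors, 6 sensors of nucleic acid (a helper ligase among them), 19 effectors and 2 chemokines. A member was taken by its symbol, and each of the 31 symbols had 1 row among the 28692 genes of both count matrices. The cells came from lung tumours labelled small cell lung cancer, a neuroendocrine cancer, of mice of mixed strain. Both groups carry CGRPCreER/+, a tamoxifen-inducible Cre recombinase driven from the CGRP (Calca) locus, so that recombination starts in cells that express CGRP, the floxed alleles Rbf/f, P53f/f and Ptenf/f, and the reporter Rosa26mTmG, which turns on membrane GFP after recombination. One group of mice received saline (vehicle) and the other 5 mg/kg cisplatin, a platinum drug that crosslinks DNA, at 4-day intervals over 2 weeks, and live GFP-sorted cells were loaded at 5000 per library on the 10x Genomics platform. The library protocol also names etoposide for the treated tumours, and the number and age of the animals were not given in these sources.

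Interferons are secreted proteins that warn cells of infection. Type I interferons bind the receptor pair Ifnar1 and Ifnar2, the kinases Jak1 and Tyk2 are activated, and a complex with Stat2 and Irf9 binds interferon-stimulated response elements (ISREs) in the promoters of target genes. The products of the target genes sense viral RNA and DNA, degrade or block viral RNA and proteins, and recruit immune cells, and several of the sensors and factors are themselves interferon-stimulated. In tumours the same genes can be active in cancer cells without a virus.

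The vehicle library held 32519922 unique molecular identifiers (UMIs, each standing for 1 captured RNA molecule) in 3726 barcodes, and the cisplatin library 28777462 UMIs in 4254 barcodes. Tumour barcodes, the cells described below, were those with at least 500 detected genes, at most 10% mitochondrial UMIs and fewer than 3 markers of any 1 other cell type. They numbered 3640 in vehicle and 4212 in cisplatin, with medians of 8205.5 and 5940.5 UMIs, and 99.8% of them in each library had a UMI of at least 3 of 12 neuroendocrine markers. Calca, the gene that drives the Cre, had 15 and 11 UMIs. The libraries shared 23 barcode sequences, 22 of them among the tumour barcodes, and no barcode was removed as a doublet. Each group was 1 library, so no comparison has a replicate or a test behind it; ranges in parentheses are exact 95% intervals that cover counting error only, and drug and library cannot be told apart. Levels are given in CPM, the UMIs of a gene scaled to the summed total of the tumour barcodes of its library.

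The members' promoters are shown first because interferon signalling acts on target genes through the ISRE; 2 motifs were searched. RefSeq promoter windows (GRCm38.p6) of 300 bases around the transcript start were matched for 25 of the 31 members by symbol. The core searched was GAAANNGAAA on both strands, without excluding overlaps, and it was found in 15 of the 25 member genes (60%) and in 1079 of all 27025 genes with a window (3.99%). By role it was in 10 of 16 effectors, 3 of 4 sensors, 1 of 4 transcription factors and the 1 chemokine with a window. The core of the gamma-activated site, TTCNNNGAA, a motif of interferon gamma targets, was in 7 of the 25 (28%) and in 9.55% of all genes. The stretches below lie upstream of the annotated start, are written 5′ to 3′ along the gene's own strand, and have each ISRE core in capitals, so that TTTC marks a core on the opposite strand. Ifit1, Ifit3, Isg15, Rsad2 and Cxcl10 are shown because the difference between libraries or the concentration in few cells was large for them, and Stat2 because it was the 1 transcription factor with the core.
Ifit1: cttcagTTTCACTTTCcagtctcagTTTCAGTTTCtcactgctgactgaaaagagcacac
Ifit3: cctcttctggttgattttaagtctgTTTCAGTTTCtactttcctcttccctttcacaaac
Isg15: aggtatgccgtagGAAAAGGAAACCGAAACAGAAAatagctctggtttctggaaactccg
Rsad2: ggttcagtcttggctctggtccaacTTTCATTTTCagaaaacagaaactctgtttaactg
Cxcl10: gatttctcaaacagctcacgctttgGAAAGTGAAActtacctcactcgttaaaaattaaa
Stat2: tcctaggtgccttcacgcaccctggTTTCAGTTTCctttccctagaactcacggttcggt

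The stretches lie at chr19:34640779-34640838 (Ifit1, plus strand), chr19:34583382-34583441 (Ifit3, plus strand), chr4:156200850-156200909 (Isg15, minus strand), chr12:26456538-26456597 (Rsad2, minus strand), chr5:92349068-92349127 (Cxcl10, minus strand) and chr10:128270251-128270310 (Stat2, plus strand). Isg15 carried 3 overlapping cores in 1 run of GAAA repeats. The core spelled GAAACTGAAA was found in 7 member genes, namely Stat2, Ifit1, Ifit3, Ifit3b, Oas1a, Bst2 and Gbp3, and in 71 genes of the whole table. GAAAGTGAAA was found in 5 members, among them Ifit1 and Cxcl10, and in 82 genes of the whole table. A match describes letters in this window and is not a measured binding site. Irf7, Irf1 and Irf9 had no ISRE core in their windows.

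The median difference between libraries had opposite signs by role, though Irf7 (log2 ratio 0.20), Dhx58 (0.05) and Parp14 (-0.81) went against the sign of their role. The members that carry out or announce the response were mostly higher in the cisplatin library: 10 of 19 effectors and both chemokines were at least 1.5-fold higher and 1 effector at least 1.5-fold lower. The members that sense and switch on the response were not: 0 of 4 transcription factors and 0 of 6 sensors were higher, and 2 of each were lower. Over all 31 members 12 were higher, where 6.61% of the 13395 genes with at least 50 UMIs over both libraries were, and 5 were lower, where 17.7% were. The members were chosen with earlier results of these data known, so these counts only describe the list. Of 30 other measured interferon-stimulated genes, described below, 4 were higher and 4 lower. The median log2 ratio of cisplatin over vehicle, with 1 CPM added to each, was 0.19 over the members and -0.16 over all measured genes. By role the median was -0.57 for the transcription factors, -0.40 for the sensors, 0.67 for the effectors and 2.33 for the chemokines. Each member reached 50 UMIs over both libraries, but Ifit3b had only 25 of its UMIs in vehicle and Gbp2 reached 50 in neither library alone. The median of all genes depended on the scaling: it was -0.02 with trimmed means of M values (TMM), which put 9.68% of all genes higher and 11.0% lower, and 0.00 with median-of-ratios size factors, which put 10.5% and 10.4%. Members higher then numbered 13 and members lower 3 with both, and the transcription factors Irf9 and Stat2 were inside the 1.5-fold limit.

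**Figure D1:**
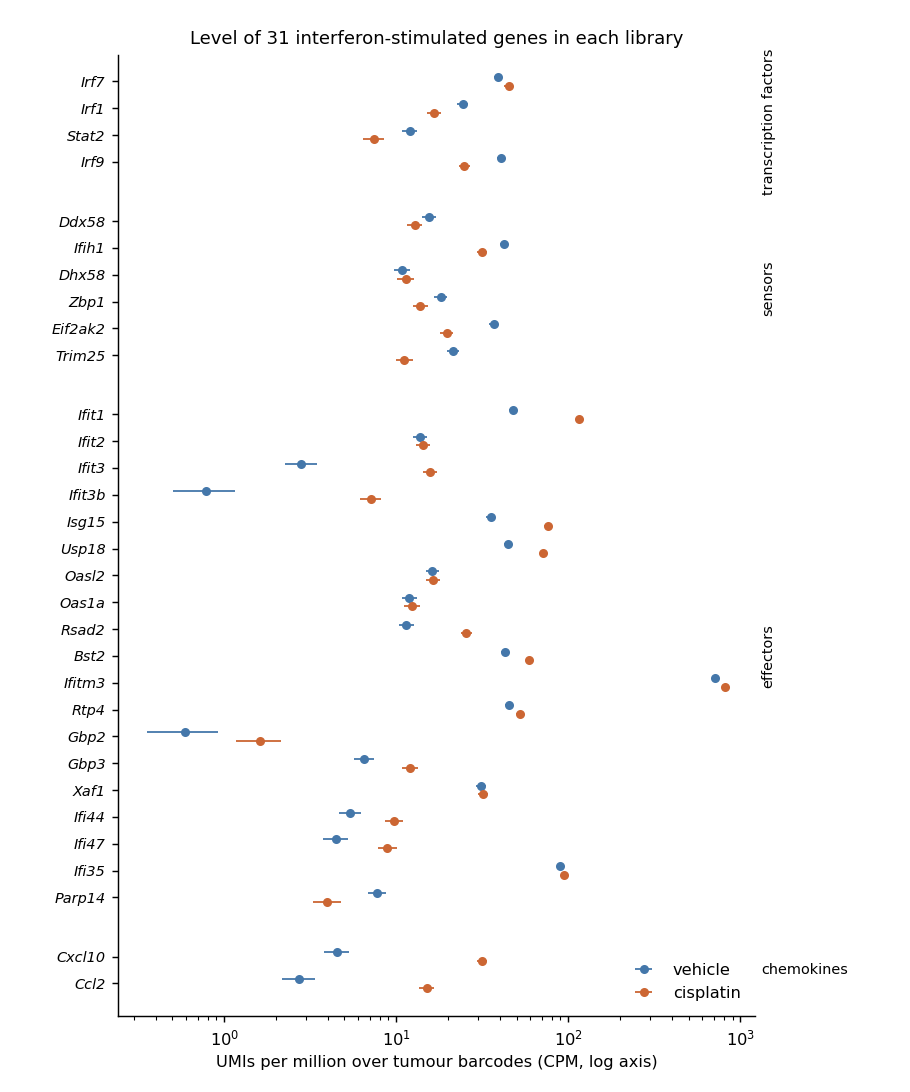
Level of each of the 31 members in the tumour barcodes of the vehicle (blue) and cisplatin (orange) library, in CPM on a log axis, with exact 95% Poisson intervals as bars and the members grouped by role. The orange points lie to the right for Ifit1 (47.4 and 115 CPM), Isg15 (35.4 and 75.7 CPM) and Cxcl10 (4.53 and 31.6 CPM), and to the left for Irf9 (40.4 and 24.9 CPM) and Trim25 (21.4 and 11.1 CPM).

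Among the transcription factors, Irf9, a DNA-binding partner of Stat2 (GRCm38 chromosome 14, bases 55603571 to 55610030), measured 40.4 CPM (38.3 to 42.7) in vehicle and 24.9 CPM in cisplatin (23.1 to 26.8), a log2 ratio of -0.68. Stat2, its partner (chromosome 10, bases 128270559 to 128292849), measured 12 CPM (10.8 to 13.2) against 7.41 CPM (6.44 to 8.47), a log2 ratio of -0.62. The intervals of these 2 subunits did not overlap between the libraries, but with TMM scaling their log2 ratios were -0.53 and -0.48, inside the 1.5-fold limit, and that of Irf9 was -0.48 without the delta-like barcodes described below. Irf1, a factor induced above all by interferon gamma, was at 24.3 and 16.6 CPM, also inside that limit (-0.52). Irf7, which amplifies the type I interferon genes and is itself a strongly induced target, was the factor of the 4 with a higher level in cisplatin, at 39.0 CPM (36.9 to 41.2) against 45.0 CPM (42.5 to 47.5), a log2 ratio of 0.20.

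Of the sensors, Eif2ak2 and Trim25 were lower by 1.5-fold, and the other 4 stayed inside that limit. Eif2ak2 (PKR), a kinase that double-stranded RNA activates and that stops translation (chromosome 17, bases 78852564 to 78882573), measured 36.7 CPM (34.7 to 38.9) in vehicle and 19.6 CPM in cisplatin (18 to 21.3), a log2 ratio of -0.87. Trim25, the ubiquitin ligase that activates RIG-I (chromosome 11, bases 88999376 to 89020293), measured 21.4 CPM (19.8 to 23.1) against 11.1 CPM (9.96 to 12.4), a log2 ratio of -0.88. Both stayed past 1.5-fold with TMM scaling, at -0.72 and -0.74. Ifih1 (MDA5), a receptor for long double-stranded RNA, was at 42.3 and 31.3 CPM, and Ddx58 (RIG-I), a receptor for RNA with a 5′ triphosphate, at 15.5 and 12.8 CPM. Zbp1, a sensor of left-handed nucleic acid, was at 18.1 and 13.8 CPM. Dhx58 (LGP2), a regulator of the other two RNA helicases, was at 10.9 CPM (9.76 to 12.1) against 11.3 CPM (10.1 to 12.6), a difference within counting error.

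The Ifit proteins bind viral RNA, and their genes lie side by side on chromosome 19. Ifit1 (34640871 to 34650009) was at 47.4 CPM (45.0 to 49.8) in vehicle and 115 CPM in cisplatin (111 to 119), a log2 ratio of 1.26. Ifit3 (34583531 to 34588731) was at 2.81 CPM (2.26 to 3.45) against 15.7 CPM (14.3 to 17.2), and Ifit3b (34607970 to 34613401) at 0.781 CPM (0.505 to 1.15) against 7.13 CPM (6.18 to 8.18). Their log2 ratios were 2.13 and 2.19. Counts of these last 2 genes are uncertain, since their longest annotated transcripts were 98% identical over 1697 aligned bases and 51.2% of the 50-base stretches of Ifit3 also occurred in Ifit3b. Ifit2 (34550694 to 34576419), in the same cluster, was at 13.8 CPM (12.5 to 15.2) against 14.3 CPM (13 to 15.8) and so did not differ beyond counting error.

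The ubiquitin-like modifier Isg15 (chromosome 4, bases 156199424 to 156200818) was at 35.4 CPM (33.4 to 37.5) in vehicle and 75.7 CPM in cisplatin (72.6 to 79.0), a log2 ratio of 1.08. Usp18, the protease that removes Isg15 from its targets and also dampens signalling at the interferon receptor, was at 44.5 CPM (42.2 to 46.9) against 71.2 CPM (68.1 to 74.3), a log2 ratio of 0.67. Rsad2 (viperin, chromosome 12, bases 26442746 to 26456452), which makes a chain-terminating nucleotide, was at 11.5 CPM (10.3 to 12.7) against 25.6 CPM (23.8 to 27.5), a log2 ratio of 1.09. These 3 genes were thus higher in cisplatin with intervals that did not meet.

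Gbp3, Gbp2, Ifi47 and Ifi44 were also higher by 1.5-fold. Gbp3, a guanylate-binding protein, was at 6.50 CPM (5.64 to 7.44) in vehicle and 12 CPM in cisplatin (10.8 to 13.4). Its neighbour on chromosome 3, Gbp2, rested on 19 and 46 UMIs, or 0.593 and 1.61 CPM. Ifi47, a GTPase of the immunity-related family, was at 4.47 CPM (3.76 to 5.26) against 8.87 CPM (7.82 to 10.0). Ifi44, an interferon-induced antiviral gene, was at 5.40 CPM (4.63 to 6.27) against 9.68 CPM (8.57 to 10.9). Their log2 ratios ran from 0.71 for Gbp2 to 0.85 for Ifi47.

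The other effectors stayed within 1.5-fold except Parp14. Ifitm3, which blocks fusion of viral and endosomal membranes, was at 715 CPM (706 to 725) in vehicle and 817 CPM in cisplatin (807 to 828), a log2 ratio of 0.19. It alone made up 51.1% and 48.5% of the UMIs of the 31 members pooled, and a UMI of it was found in 83.8% and 82.2% of barcodes (64.6% and 68.9% thinned to 3000 UMIs). Bst2 (tetherin), which holds budding virions at the cell surface, was at 42.7 and 59.3 CPM, inside the limit with a log2 ratio of 0.47 but past it with TMM scaling (0.62). Oas1a and Oasl2, of the oligoadenylate synthetase family, whose products activate RNase L, were at 11.9 and 12.3 CPM and at 16.2 and 16.3 CPM, with intervals that overlapped. Rtp4, a transporter of receptors to the cell surface at 45.0 and 52.4 CPM, Xaf1, a gene of apoptosis signalling at 31 and 31.9 CPM, and Ifi35, at 89.8 and 94.1 CPM, differed by less than 1.2-fold. Parp14, a mono-ADP-ribosyltransferase, was the effector that went the other way, at 7.75 CPM (6.81 to 8.77) against 3.98 CPM (3.29 to 4.78), a log2 ratio of -0.81.

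The UMIs of the 2 chemokines rested on few barcodes. Cxcl10, a T cell attractant that binds the receptor Cxcr3 (chromosome 5, bases 92346638 to 92348889), measured 4.53 CPM (3.82 to 5.33) in vehicle and 31.6 CPM in cisplatin (29.6 to 33.7), a log2 ratio of 2.56. Its UMIs were in 64 of 3640 and 183 of 4212 barcodes (1.76% and 4.34%, and 0.515% and 2.23% after thinning each barcode to 3000 UMIs). The 3 barcodes with most Cxcl10 held 37.2% and 45.6% of its UMIs, and 1 cisplatin barcode alone held 249 of 904. Without the barcode with most UMIs in each library Cxcl10 was at 3.53 and 22.9 CPM, a log2 ratio of 2.40. Ccl2, a monocyte attractant (chromosome 11, bases 82035571 to 82037453), measured 2.72 CPM (2.18 to 3.35) against 15 CPM (13.6 to 16.5), a log2 ratio of 2.10. It was in 24 and 48 barcodes, and 1 cisplatin barcode held 268 of its 429 UMIs. Without the barcode with most UMIs in each library Ccl2 was at 2.06 and 5.63 CPM and its log2 ratio was 1.11. The 2 chemokines were detected together in 6 vehicle and 12 cisplatin barcodes.

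The members differed widely in how many cells held their RNA. Broad against few-cell expression was read from the 2% of tumour barcodes with the largest share of their UMIs in the members, 73 barcodes in vehicle and 85 in cisplatin, and for each gene this ranking was made from the other members only, so that a gene did not choose its own cells. A gene was counted as concentrated when these barcodes held at least 10% of its UMIs, given 50 UMIs in that library. In vehicle 19 of 29 members were concentrated, where 0.370% of 12440 other genes were, and in cisplatin 27 of 30, where 0.558% of 12177 were; the median of other genes was 2.02% and 2.17%. The same 19 genes were concentrated in both libraries. The share was higher in cisplatin for 28 of the 29 members with 50 UMIs in each library, with Cxcl10 the exception, and for 24 of 24 after thinning. How many other genes had a higher share in cisplatin was not counted. Their median was also higher in cisplatin over all tumour barcodes, but not after thinning (1.895% in vehicle and 1.887% in cisplatin). The members were read in overlapping sets of top barcodes from 1 library per group, so they are not separate observations.

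**Figure D2:**
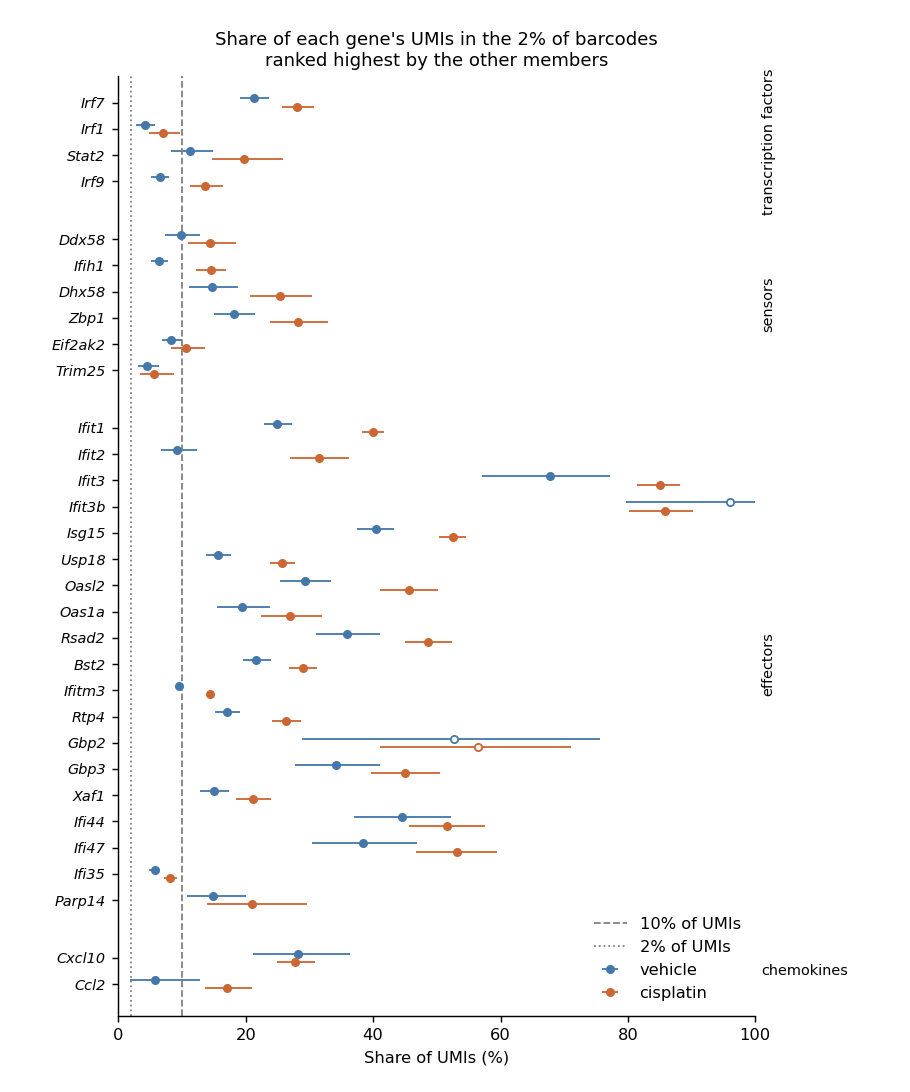
Share of each member's UMIs (%) held by the 2% of tumour barcodes that ranked highest by the other members, in vehicle (blue) and cisplatin (orange), with exact 95% binomial intervals as bars. Open points rest on under 50 UMIs, and lines mark 2% (dotted) and 10% (dashed). Ifit3 stands at 67.8% and 85.1%, while Trim25 (4.53% and 5.64%) and Irf1 (4.12% and 6.96%) stay left of the 10% line.

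Among the effectors, Ifit3 had 67.8% of its UMIs in the top barcodes of vehicle (57.1 to 77.2%) and 85.1% in those of cisplatin (81.4 to 88.2%). Ifit3b, which may share reads with it, had 24 of 25 UMIs there in vehicle and 175 of 204 in cisplatin. Isg15 had 40.4% (37.5 to 43.3%) and 52.5% (50.3 to 54.6%), Rsad2 36.0% (31.1 to 41.1%) and 48.6% (45.0 to 52.3%), and Ifit1 25% (22.8 to 27.2%) and 39.95% (38.3 to 41.6%). Ifi44 had 44.5% and 51.6%, Ifi47 38.5% and 53.1%, and Gbp3 34.1% and 45.1%. Ifit2 differed most between the libraries, by 22.2 percentage points, with 9.28% (6.74 to 12.4%) in vehicle and 31.5% (27.0 to 36.2%) in cisplatin, while the intervals of its levels overlapped. Oasl2, also at a like level in both, had 29.3% and 45.6%.

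Other effectors were spread more broadly. Ifi35 had 5.70% of its UMIs in the top barcodes in vehicle and 8.17% in cisplatin and was found in 49.1% and 42.6% of barcodes (22.5% and 24.1% thinned). Ifitm3 had 9.51% (9.13 to 9.90%) and 14.4% (13.9 to 14.8%). Between these and the genes above lay Usp18 (15.6% and 25.7%), Rtp4 (17.1% and 26.3%), Bst2 (21.7% and 28.9%), Oas1a (19.4% and 27.0%), Xaf1 (15% and 21.2%) and Parp14 (14.9% and 21.1%). Gbp2 had 10 of 19 and 26 of 46 UMIs there, too few to be counted.

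Of the transcription factors, Irf7 was concentrated in both libraries, with 21.3% (19.1 to 23.7%) and 28.1% (25.7 to 30.7%) of its UMIs in the top barcodes. Stat2 followed with 11.2% (8.25 to 14.8%) and 19.8% (14.7 to 25.8%). Irf9 had 6.49% (5.21 to 7.97%) and 13.6% (11.2 to 16.4%). Irf1 was the broadest of the 4, with 4.12% (2.83 to 5.76%) and 6.96% (4.84 to 9.64%), above the 2.02% and 2.17% of other genes but under 10% in both.

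The sensors showed a like range. Zbp1 had 18.1% (15.1 to 21.5%) and 28.2% (23.8 to 32.9%) of its UMIs in the top barcodes, and Dhx58 14.7% (11.1 to 18.8%) and 25.3% (20.7 to 30.4%). Ddx58 had 9.88% and 14.4%, Ifih1 6.43% and 14.5%, and Eif2ak2 8.33% and 10.7%, so these 3 passed 10% in cisplatin only, with intervals that overlapped between the libraries for Ddx58 and Eif2ak2. Trim25 had 4.53% (3.10 to 6.36%) and 5.64% (3.38 to 8.77%) with overlapping intervals, and stayed under 10% in both. In cisplatin, Trim25 and Eif2ak2, the sensors at least 1.5-fold lower there than in vehicle, had the lowest top shares of the 6.

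Cxcl10 had 28.3% (21.1 to 36.3%) and 27.8% (24.9 to 30.8%) of its UMIs in the top barcodes of the other members, a difference within counting error. Ccl2 had 5 of 87 UMIs there in vehicle and 73 of 429 in cisplatin (17.0%; 13.6 to 20.9%). The barcode with most Ccl2 was therefore not among those that ranked highest by the other members, since it alone held 268 UMIs.

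Pooled by role, and with barcodes ranked by the members of the other roles, the effectors had 11.2% of their UMIs in the top 2% of vehicle barcodes (10.9 to 11.5%) and 19.6% in those of cisplatin (19.2 to 19.98%). The transcription factors had 11.9% (10.8 to 12.9%) and 19.9% (18.4 to 21.5%). The sensors had the lowest shares, 9.01% (8.20 to 9.87%) and 15.9% (14.6 to 17.3%), and the chemokines 19.8% (14.9 to 25.5%) and 24.3% (22.0 to 26.7%). Those barcodes held between 1.73% and 2.28% of all UMIs. Of the effectors' UMIs in top barcodes Ifitm3 weighs heavily, with a share of its own of 9.51% and 14.4%, and the median over single effectors was 21.7% and 35.7%, against 8.86% and 16.7% for the transcription factors and 9.11% and 14.5% for the sensors.

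**Figure D3:**
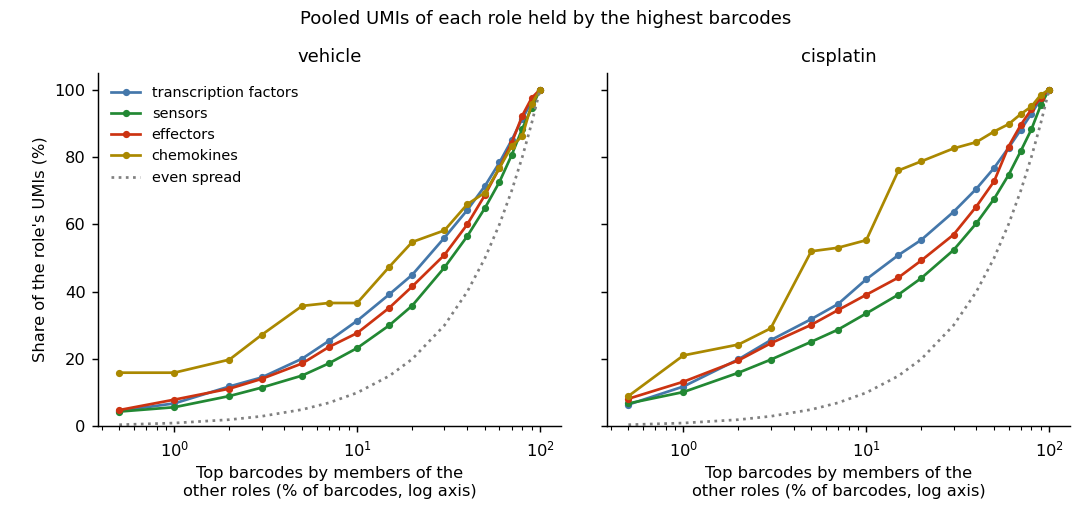
Share of each role's pooled UMIs (%) against the share of tumour barcodes taken from the top of the ranking by the members of the other roles (log axis), with vehicle on the left and cisplatin on the right; the dotted curve is an even spread. At 2% of barcodes the sensors are lowest in both libraries (9.01% and 15.9%), and the chemokine curve, over 2 genes, rises in steps.

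A gene's own top barcodes give another view of few-cell expression, with a floor set by its number of UMIs. The floor is the lowest share possible, with UMIs dealt evenly to all barcodes. Random sampling and unequal depth also raise a share above it, and their part was not measured. The 2% of barcodes with most Isg15 held 61.4% of its UMIs in vehicle and 67.3% in cisplatin, where an even spread of as many UMIs would give 6.44% and 3.92%. For Rsad2 the shares were 64.6% and 74.3% against 19.9% and 11.6%, and for Ifit1 40.3% and 56.5% against 4.81% and 2.58%. For Ifi35 they were 12.4% and 14.0% against 2.54% and 3.16%, and for Ifitm3 18.3% and 20.6% against 2.23% and 2.18%. For Trim25, with 22.3% and 33.5% against 10.7% and 26.6%, most of the cisplatin share was what its 319 UMIs force. Ifit3 in vehicle (100% against 81.1%) could hardly have shown a lower value, and in cisplatin it had 94.7% against 18.9%.

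Counted per cell, most tumour barcodes held few members in both libraries. After thinning to 3000 UMIs, which left out 143 vehicle and 361 cisplatin barcodes, the median was 2 members per barcode in each, and 394 of 3497 vehicle (11.3%) and 432 of 3851 cisplatin barcodes (11.2%) held none. At least 10 members were detected in 46 vehicle barcodes (1.32%; 0.965 to 1.75%) and 98 cisplatin barcodes (2.54%; 2.07 to 3.09%). The highest number was 21 members in vehicle and 25 in cisplatin. Without thinning, the median was 16 members in the top 2% of vehicle barcodes and 4 in the rest, and 18 and 3 in cisplatin. No cell type known to lack these genes was available, so the level that free RNA gives was not measured.

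**Figure D4:**
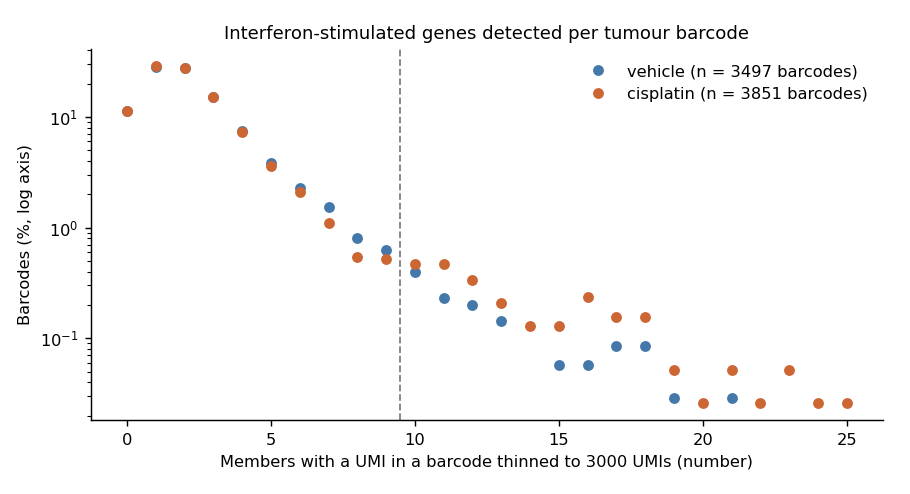
Number of the 31 members with a UMI in a tumour barcode thinned to 3000 UMIs, against the share of barcodes (%, log axis), for vehicle (blue, 3497 barcodes) and cisplatin (orange, 3851 barcodes). The points lie close at low numbers, and vehicle lies above cisplatin at 7 to 9 members (54 and 42 barcodes at 7). Right of the dashed line cisplatin lies above, and barcodes with at least 10 members made up 1.32% and 2.54%. The size of this gap depends on the cut at 10.

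With the top 2% of barcodes left out of each library, a step that by its making removes the members' own UMIs, 5 of 29 members were higher, where 6.51% of all genes were, and 5 lower, where 17.8% were, and the median log2 ratio was 0.032. Ifit1 was then at 35.6 and 62.2 CPM (log2 ratio 0.79), Isg15 at 19.8 and 35.5 CPM (0.81), Rsad2 at 7.50 and 11.9 CPM (0.61) and Cxcl10 at 2.87 and 12.4 CPM (1.79). The remaining barcodes were not free of member-rich ones: a fixed 2% took 85 cisplatin barcodes, while 98 thinned ones held at least 10 members. Ifit3, at 0.925 and 2.36 CPM (0.80), was the fifth, and Ifit3b and Gbp2 then had under 50 UMIs and were not counted. Ccl2, at 2.62 and 3.15 CPM (0.20), and Usp18, at 38.0 and 54.1 CPM (0.50), were inside the limit. The lower genes stayed lower. Eif2ak2, at -0.90, Trim25, at -0.90, and Parp14, at -0.87, moved little, while Irf9 went from -0.68 to -0.78 and Stat2 from -0.62 to -0.74.

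**Figure D5:**
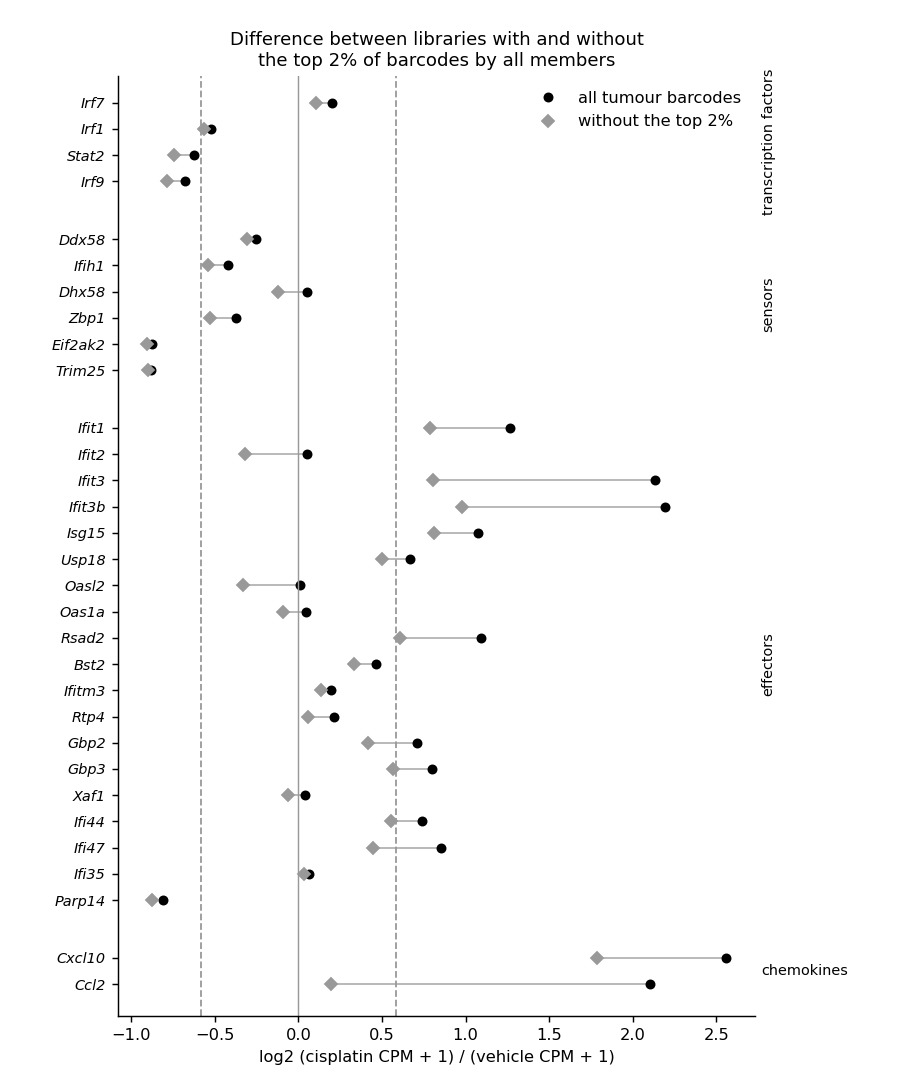
Log2 ratio of cisplatin over vehicle for each member over all tumour barcodes (black circles) and without the top 2% of barcodes by all members in each library (grey diamonds); dashed lines mark 1.5-fold. Ccl2 moves from 2.10 to 0.20 and Ifit3 from 2.13 to 0.80, while Trim25 stays near -0.90.

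The top barcodes carried neuroendocrine markers. Barcodes with at least 3 markers of 1 other cell type had been left out beforehand, so low counts of those markers were partly set in advance. The summed neuroendocrine markers were at 6434 CPM in the top 2% and 6230 CPM in the rest of vehicle, and at 8119 and 9992 CPM in cisplatin. Median depth was higher in the top barcodes, 8705 against 8195 UMIs in vehicle and 7312 against 5930 in cisplatin, and the median mitochondrial share was 2.37% against 2.78% and 2.98% against 3.36%. Barcodes with a UMI of at least 2 different genes among 10 mitotic genes made up 45.2% of the top and 54.2% of the rest in vehicle, and 51.8% and 47.8% in cisplatin. The 12 T and B cell markers summed to 43.3 CPM in the top and 4.72 CPM in the rest of vehicle and 19.96 and 9.37 CPM in cisplatin, where 22 of 29 and 11 of 13 UMIs of the top barcodes were Ccl5, a chemokine gene, and 8 and 9 of the markers were at 0. The myeloid markers were at 35.9 and 35 CPM and at 18.4 and 21 CPM. Ptprc and Tyrobp had 0 UMIs in the top barcodes of both libraries, while over all other tumour barcodes Ptprc had 1 in vehicle and 5 in cisplatin and Tyrobp 19 and 6. In vehicle the T cell genes Cd3g and Trbc2 had 3 UMIs each and Cd3e 1 in the top barcodes (4.48, 4.48 and 1.49 CPM, against 1.82, 1.44 and 0.064 CPM in the rest), and the myeloid gene Lyz2 4 (5.98 against 3.06 CPM). The fibroblast markers were at 103 and 43.8 CPM in vehicle, 68 of 69 UMIs being Dcn, and at 30.7 and 22.1 CPM in cisplatin. The endothelial markers were at 5.98 and 11.4 CPM in vehicle and at 21.5 and 12.7 CPM in cisplatin. There 8 of the 14 UMIs of the top barcodes were Pecam1 (12.3 CPM, against 2.32 CPM in the rest). The lung epithelial markers were lower in the top barcodes, at 112 against 894 CPM and 407 against 2286 CPM. After thinning to 3000 UMIs 16 of 25 vehicle and 26 of 29 cisplatin members were concentrated, where 25 of 10782 and 33 of 10624 other genes were. Without barcodes with at least 3 lung epithelial markers 20 of 29 and 27 of 30 members were, beside 46 of 12375 and 64 of 12071 other genes. The part of the Ccl5, Dcn and Pecam1 UMIs in the result was not tested.

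In the cisplatin library 910 barcodes (21.6%) had a UMI of at least 2 of the delta cell-like genes Pnoc, Sst, Hoxb8, Hhex and Isl1, against 22 (0.604%) in vehicle. The members were mostly lower in these cells than in the other 3302 cisplatin barcodes: 17 of the 30 members with 50 UMIs were at least 1.5-fold lower, where 13.4% of 12207 genes were, and 1 was higher, where 9.90% were. The median log2 ratio was -0.65 over the members and -0.07 over all genes, and median depth was 7956 against 5523 UMIs. Irf9 was at 14.3 CPM in the delta-like and 28.9 CPM in the other barcodes, Zbp1 at 5.73 and 16.8 CPM, Oas1a at 4.96 and 15.1 CPM, and Ifit3 at 5.35 and 19.6 CPM. Ifit1 (97.6 and 122 CPM), Isg15 (70.5 and 77.7 CPM), Rsad2 (24.2 and 26.1 CPM) and Usp18 (82.2 and 67.0 CPM) differed by less than 1.5-fold. The chemokines parted: Cxcl10 was the higher member, at 70.3 CPM (64.5 to 76.4) against 16.9 CPM (15.2 to 18.8), with 81 of its 183 barcodes delta-like, and Ccl2 was at 0.891 CPM (0.358 to 1.84) against 20.3 CPM (18.4 to 22.4). Single barcodes weigh heavily here. Delta-like barcodes held 7 Ccl2 UMIs, so the barcode with 268 gave most of the 422 UMIs of the others. For Cxcl10 1 barcode held 249 of 904 UMIs. The intervals do not cover this spread between barcodes. Without delta-like barcodes in either library 11 of 30 members were higher and 4 lower, where 4.22% and 16.7% of all measured genes were. The log2 ratio of cisplatin over vehicle was then 1.71 for Cxcl10, 2.51 for Ccl2, 0.58 for Usp18 and -0.48 for Irf9, the last 2 inside the limit, and 0.65 for Bst2, past it. Of the top 2% of cisplatin barcodes 11.8% were delta-like, against 21.8% of the rest.

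Upstream of the members, few interferon transcripts were counted. Over 21 interferon genes 7 UMIs were counted in vehicle and 6 in cisplatin tumour barcodes, and 18 of the genes were at 0 in both. Ifnb1, the main early type I interferon, had 0 UMIs in each, which allows up to 0.0937 and 0.105 CPM. The type I receptor subunits were detected, Ifnar1 at 19.7 and 14.1 CPM and Ifnar2 at 19.1 and 26.3 CPM. Of 11 receptor, kinase and Stat genes 0 were higher and 2 lower, where 6.61% and 17.7% of all measured genes were. Stat3 was lower, at 119 and 61.8 CPM, and Jak2, at 17.4 and 10.3 CPM.

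Of 11 measured genes of nucleic acid signalling 0 were higher and 3 lower, where 6.61% and 17.7% of all measured genes were. Mb21d1 (cGAS), which makes the messenger that activates STING, was lower, at 22.1 and 11.8 CPM. The kinase Tbk1, at 21.5 and 13.9 CPM, and its relative Ikbke, at 4.68 and 2.69 CPM, were lower too. Of 6 negative regulators 1 was higher and 2 lower, beside the same 6.61% and 17.7% of all measured genes. Socs1 was higher, at 5.72 and 9.57 CPM, and Socs3, at 146 and 84.8 CPM, and Ptpn1, at 101 and 59.1 CPM, were lower.

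Of 30 measured interferon-stimulated genes that are no members, 4 were higher and 4 lower, where 6.61% and 17.7% of all measured genes were. Their median log2 ratio was -0.02, beside -0.16 over all measured genes. The 4 higher were the GTPase genes Iigp1 (0.562 and 1.89 CPM), Tgtp1 (0.437 and 1.54 CPM) and Irgm1 (18.4 and 28.8 CPM) and the nuclear body gene Sp100 (2.84 and 5.07 CPM). The 4 lower were Ifitm1, a relative of Ifitm3, at 10.6 and 2.06 CPM, Ifi27l2a at 950 and 423 CPM, Pml at 16.2 and 9.89 CPM and Nlrc5, the activator of MHC class I genes, at 1.53 and 0.664 CPM. The concentration seen in the members was present here too: 11 of 26 genes in vehicle and 20 of 27 in cisplatin had at least 10% of their UMIs in the top 2% of barcodes by the members, with medians of 8.61% and 15.9%. Of all genes that are no members 0.370% in vehicle and 0.558% in cisplatin did.

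Outside all lists, the genes most like the members in this respect were taken by the lower of their 2 shares among 10987 genes with 50 UMIs in each library. In order they were AW112010 (55.2% in vehicle and 32.8% in cisplatin), Gbp9 (31% and 37.8%), Apol9a (21.6% and 43.1%), Apol9b (20.6% and 40.5%), Tgtp2 (19.7% and 47.8%), Trim12c (15.8% and 24.9%), Phf11d (15.2% and 29.7%), Lgals9 (14.3% and 26.4%), Tmem140 (14.3% and 19.2%), Gzma (18.4% and 14.0%), Sp110 (13.5% and 24.7%) and Serping1 (12.9% and 14.9%). Apol9a and Apol9b are near-identical paralogs whose counts may be split. Gzma encodes granzyme A, a protease of cytotoxic lymphocytes, and Serping1 an inhibitor of complement. The intervals of the lower shares overlapped between neighbours in this order.

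Members with and without the ISRE core in the promoter window had top shares that overlapped widely. The 13 members with the core and 50 UMIs in vehicle had a median top share of 21.7%, from 6.43% to 67.8%, and the 10 members with a window and no core one of 12.1%, from 4.12% to 44.5%. In cisplatin the medians were 28.3% over 14 members and 24.6% over 10. For 9 members part of the exons lies on bases that another annotated gene also covers, Irf7 and Irf9 and Cxcl10 among them, and the sources used here do not give whether the counting used strand.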

How the data were processed

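Raw UMI counts per gene and barcode, not normalized per the file headers, were deposited by the authors as 1 matrix per library; Cell Ranger 2.0.2 and mm10 are named per the submitters' processing notes, without their roles. UMIs were summed over tumour barcodes, scaled to CPM, and compared as log2 ratios with 1 CPM added; a gene was measured with 50 UMIs over both libraries and called at 1.5-fold. Intervals are exact 95% Poisson (levels) or Clopper-Pearson (shares). A level of 0 allows 3 counts. No doublet caller was run. Members, lists and thresholds were chosen with earlier results of these data known. All 31 members were named, the pathway genes past 1.5-fold (up to 4 per list, with Ifnb1, Ifnar1 and Ifnar2), and the 12 genes outside the lists with the highest lower share; a gene that the rule takes is not reported here. Python 3.11.15, numpy 2.4.6, scipy 1.17.1, pandas 2.3.3 and matplotlib 3.10.9 were used, with edgeR 4.0.16 (TMM) and DESeq2 1.42.0 (size factors only) in R 4.3.3. The steps were tested on simulated data. Alternatives changed barcodes, filters, scaling, pseudocount, thresholds, ranking and depth. Positions are from GENCODE M21 (GRCm38), promoters from RefSeq (GRCm38.p6).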

Additional observations from a re-analysis of the deposited data

Results flagged for a closer look

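Barcodes left out because they carried markers of other cell types, 32 in vehicle and 6 in cisplatin, also held UMIs of the members. Pooled over the 31 members these were 478 UMIs in vehicle, or 1678 CPM (1531 to 1836), and 109 UMIs in cisplatin, or 2568 CPM (2109 to 3098), beside 1401 and 1685 CPM in the tumour barcodes of the same libraries. They were picked out because these barcodes enter no comparison and their level was above the limit that a count of 0 allows (10.5 and 70.7 CPM). Without Ifitm3 the pooled levels were 748 and 495 CPM, beside 685 and 867 CPM in the tumour barcodes. UMIs were found for 29 members in the vehicle barcodes and for 12 in the cisplatin barcodes.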

How the results depend on the processing

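Over all tumour barcodes 12 members were higher and 5 lower, with a median log2 ratio of 0.19, and 19 and 27 members were concentrated in vehicle and cisplatin. The numbers of members lower were 3 with TMM, 3 with median-of-ratios scaling and 3 with 5 CPM added, and the medians were 0.35 and 0.37 with the 2 scalings. Of all measured genes 11.0%, 10.4% and 9.35% were lower with these settings. A 2-fold limit left 7 members higher and 0 lower, where 2.59% and 3.98% of all measured genes were. Without the top 2% of barcodes 5 were higher and the median was 0.032, and without delta-like barcodes the median was 0.30. A 20% limit left 11 of 29 members concentrated in vehicle, where 11 of 12440 other genes were. The other 60 of the members' counts and medians kept their direction, with counts within 1.5 times. Of the values for single genes and roles 149 moved and 420 did not. Ratios inside the limit changed sign for Ifit2 (-0.32 to 0.22), Oasl2 (-0.33 to 0.27), Dhx58 (-0.12 to 0.22), Oas1a (-0.095 to 0.31) and Xaf1 (-0.063 to 0.21). Leaving out the barcode with most UMIs of each gene and barcodes with lung epithelial markers, and ranking without Ifitm3, were chosen after seeing the data. No paired analysis was possible because each group has 1 library and no test was run. Depth limits Gbp2, Ifit3b in vehicle and the interferon genes.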
